A study of Mus musculus with 10 samples.

Results

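Microexons of 3 to 27 nt were compared between N2A control cells and untreated neurons, at the level of inclusion that each cell type showed without Qk knockdown and without cycloheximide. An exon was taken when both deposited inclusion tables held it with the same chromosome, start and end. It also needed at least 10 inclusion plus exclusion reads in every N2A control sample. Of 965 exons in both tables, 631 in 540 genes had those reads and are the exons described here. The tables held 3652 exon events and 2103 exons of this length, so that 2687 of the N2A events and 1138 of the neuron exons had no partner.

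A microexon is an exon so short that it adds only a few amino acids to a protein. Many microexons lie in genes of the synapse, of vesicle traffic and of the cytoskeleton, and are spliced in during neuronal differentiation. The neural proteins SRRM4 and SRRM3 promote their inclusion, PTBP1 represses many of them, and RBFOX, NOVA and QK proteins act on further sets. Most add whole codons, so that skipping leaves the reading frame intact.

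N2A is a mouse neuroblastoma cell line. The control group (siNT, 3 biological replicates) received a pool of siRNA with no target at 40 nM when 100000 cells were seeded per well, and RNA was taken 72 h later. The parallel group (siQk, 3 biological replicates) received a pool against Qk under the same conditions. The glutamatergic neurons were differentiated in vitro from mouse embryonic stem cells and harvested at day 7, untreated (2 biological replicates) or after 12 h in 100 uM cycloheximide, a blocker of translation (2 biological replicates). All libraries were stranded and made from polyadenylated RNA, with inserts of 540 nt on average.

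Inclusion is given as PSI, percent spliced in, the percentage of transcripts across a position that contain the exon. For N2A the table gave 1 value per sample. For the neurons it gave 1 value per exon with the replicates combined, from another tool, and the depth behind it is unknown. No test between the cell types was therefore possible, and a difference of tool and a difference of cell type cannot be told apart. From bulk RNA, fewer cells that include an exon and less inclusion per cell cannot be told apart. An exon was counted as higher or lower in neurons when the neuron value lay at least 25 percentage points from the siNT mean and outside the range of the 3 siNT values. "Points" below are percentage points of PSI.

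The siNT samples held 59997671, 37883497 and 78479832 exon-event reads, with medians of 152, 95 and 200 reads per microexon. These reads include PCR copies that cannot be told from separate molecules, and a read can serve several events. Between siNT samples, squared differences of PSI were 1.60 to 2.67 times what sampling of reads gives, so none is a copy of another. The median SD of an exon over the 3 samples was 0.539 points and the largest 16.0. In N2A, 8 of 13 neuronal and 8 of 10 sympathoadrenal neuroblast markers had at least 100 exon-event reads in each siNT sample, as did 0 of 10 glial and 0 of 5 pluripotency markers. The same held for 2 of 7 markers of glutamatergic neurons and 4 of 6 of proliferation. Of the defining neuronal markers, Rbfox3 had 0, 0 and 2 reads over its 13 exon events, and Tubb3 has no exon event in the table. Dcx, Nefl and Nefm had at most 7 reads in any siNT sample. Among the splicing regulators, reads of Srrm4 came to 39.7 ± 5.60, of Srrm3 to 54.6 ± 9.35 and of Ptbp1 to 167 ± 9.89 CPM, counts per 1000000 exon-event reads (SD, n = 3), which are not per length and so are not compared between genes. The neuron tables hold inclusion only, so neither their markers nor their regulators could be checked.

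The sequences that carry the comparison are set out first, from the GENCODE M21 transcripts of mm10, the build of the deposited coordinates. Each line shows the microexon in capitals with 30 bases of the neighbouring exons on either side in lower case, as spliced and read 5′ to 3′ on the gene's strand. All exons shown are coding. The first set holds exons at 9.66% or less in every siNT sample and at 89.8% or more in neurons. Added to them are 2 at less extreme levels, from genes long known for a neuronal insert. These are Src, with a mean of 21.9% in siNT and 84.7% in neurons, and Cpeb4, with 18.3% and 86.4%.
Cyth2 exon of 3 nt, chr7:45808730-45808732, minus strand: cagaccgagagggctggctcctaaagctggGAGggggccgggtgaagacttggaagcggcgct
Snap91 exon of 6 nt, chr9:86809651-86809656, minus strand: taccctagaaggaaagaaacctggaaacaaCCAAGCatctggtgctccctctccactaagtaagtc
Adam22 exon of 18 nt, chr5:8107002-8107019, minus strand: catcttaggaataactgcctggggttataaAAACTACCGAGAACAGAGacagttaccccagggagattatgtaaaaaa
Exoc1 exon of 21 nt, chr5:76540747-76540767, plus strand: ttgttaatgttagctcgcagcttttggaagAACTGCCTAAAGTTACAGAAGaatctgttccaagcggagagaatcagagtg
Gramd1a exon of 12 nt, chr7:31133220-31133231, minus strand: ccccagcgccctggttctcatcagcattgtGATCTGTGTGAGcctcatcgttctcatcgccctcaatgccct
Dctn1 exon of 21 nt, chr6:83187764-83187784, plus strand: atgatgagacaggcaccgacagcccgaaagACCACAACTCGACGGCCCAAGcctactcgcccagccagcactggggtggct
Src exon of 18 nt, chr2:157458843-157458860, plus strand: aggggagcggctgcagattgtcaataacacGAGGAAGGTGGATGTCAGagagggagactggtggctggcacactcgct
Cpeb4 exon of 24 nt, chr11:31918801-31918824, plus strand: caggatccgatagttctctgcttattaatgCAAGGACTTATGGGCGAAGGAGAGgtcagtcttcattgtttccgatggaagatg

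The second set holds exons of paired genes, or pairs of exons of 1 gene. Teneurins 3 and 4 carry near copies of the same microexons, and in Clasp2 one 27 nt exon is the lower case neighbour of the other.
Tenm3 exon of 21 nt, chr8:48287133-48287153, minus strand: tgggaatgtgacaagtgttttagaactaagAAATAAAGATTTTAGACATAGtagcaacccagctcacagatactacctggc
Tenm4 exon of 21 nt, chr7:96854717-96854737, plus strand: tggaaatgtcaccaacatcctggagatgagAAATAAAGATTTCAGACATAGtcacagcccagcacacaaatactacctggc
Tenm3 exon of 27 nt, chr8:48313238-48313264, minus strand: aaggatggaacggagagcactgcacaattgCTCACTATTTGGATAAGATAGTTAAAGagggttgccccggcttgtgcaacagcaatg
Tenm4 exon of 27 nt, chr7:96805105-96805131, plus strand: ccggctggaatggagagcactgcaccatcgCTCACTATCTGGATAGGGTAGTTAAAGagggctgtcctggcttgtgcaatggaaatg
Clasp2 exon of 27 nt, chr9:113862436-113862462, plus strand: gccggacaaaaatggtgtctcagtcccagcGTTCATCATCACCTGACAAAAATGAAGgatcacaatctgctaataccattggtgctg
Clasp2 exon of 27 nt, chr9:113865086-113865112, plus strand: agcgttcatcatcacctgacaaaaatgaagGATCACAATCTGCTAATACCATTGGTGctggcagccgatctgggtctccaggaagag
Ppfia1 exon of 27 nt, chr7:144488691-144488717, minus strand: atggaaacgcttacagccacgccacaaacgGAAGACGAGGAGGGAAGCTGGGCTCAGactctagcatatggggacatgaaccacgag
Ppfia3 exon of 27 nt, chr7:45343553-45343579, minus strand: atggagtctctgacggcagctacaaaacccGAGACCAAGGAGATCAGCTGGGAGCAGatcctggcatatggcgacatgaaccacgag

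The third set holds exons that were included in N2A and skipped in neurons, beginning with the 6 nt exon of Cacna1b and the 12 nt exon of the same gene that went the other way.
Cacna1b exon of 6 nt, chr2:24642853-24642858, minus strand: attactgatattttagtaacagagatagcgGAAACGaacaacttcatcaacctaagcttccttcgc
Cacna1b exon of 12 nt, chr2:24656711-24656722, minus strand: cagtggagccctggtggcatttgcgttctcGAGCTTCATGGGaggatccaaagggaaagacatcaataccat
Max exon of 27 nt, chr12:76961263-76961289, minus strand: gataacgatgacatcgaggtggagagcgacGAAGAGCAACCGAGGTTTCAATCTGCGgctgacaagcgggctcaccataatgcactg
Macf1 exon of 9 nt, chr4:123386549-123386557, minus strand: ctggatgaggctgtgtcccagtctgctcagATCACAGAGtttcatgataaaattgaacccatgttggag
Ptprs exon of 27 nt, chr17:56427791-56427817, minus strand: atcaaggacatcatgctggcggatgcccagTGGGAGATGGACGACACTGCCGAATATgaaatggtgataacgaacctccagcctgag
Nsmf exon of 6 nt, chr2:25057965-25057970, plus strand: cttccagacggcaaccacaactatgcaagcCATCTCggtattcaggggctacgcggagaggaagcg

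Most microexons had a similar PSI in both cell types. The median difference, neurons minus N2A, was 0.0497 points, with quartiles of -1.77 and 8.62. Against siNT samples 1, 2 and 3 alone the median was -0.023, -0.038 and 0.019 points, and without siNT sample 1 it was 0.024, so its sign is not fixed. The median PSI was 91.9% in N2A and 91.6% in neurons. In 394 of 631 exons (62.4%) the values lay within 10 points of each other, and in 335 (53.1%) within 5. Across exons, Pearson's r was 0.67 (n = 631), a description only, since exons of 1 library share its depth and are not replicates. At 80% or more in both cell types stood 305 exons, and at 20% or less in both stood 111.

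The differences that did exist leaned toward higher inclusion in neurons. Of the 631 exons, 109 in 97 genes were higher in neurons (17.3%), 52 in 52 genes were lower (8.24%) and 470 were neither. In 158 of these 161 differing exons the difference was at least 3 times the SD of the siNT samples, which measures the N2A side only. The exons were selected by the size of this same difference and from the same siNT values. A high count was therefore largely set by the selection, and it is no separate support for the classes. Among the higher exons the median was 18.3% in N2A and 85.3% in neurons, and 26 exons were at 20% or less in N2A and 80% or more in neurons. Among the lower exons the median was 97.3% in N2A and 4.93% in neurons, and 24 were at 80% or more in N2A and 20% or less in neurons. Computed from the raw junction reads of the quality cells instead of the deposited PSI, the higher exons numbered 143, the lower 43 and those low in N2A and high in neurons 42, and the median difference over all exons was 0.773 points. The deposited PSI of the higher exons exceeded that from raw reads by a median of 6.04 points.

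The lower exons differed from the others in how the exon was annotated. An exon had another form when the N2A table gave it alternative ends, when an annotated exon shared exactly 1 of its ends, or when the neuron table listed only part of it. This held for 36 of the 52 lower exons (69.2%), 19 of the 109 higher exons (17.4%) and 113 of the 470 others (24.04%). Over the 463 exons with 1 form only, 90 were higher (19.4%) and 16 lower (3.46%). From the raw junction reads, those 463 gave 115 higher and 11 lower. Of the 24 exons high in N2A and low in neurons, 4 had 1 form. The part of these forms in the result was not tested. With the authors' coverage flags at SOK or OK, the 2 highest grades, in every siNT sample, 489 exons remained, of which 99 were higher and 29 lower.

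**Figure D1:**
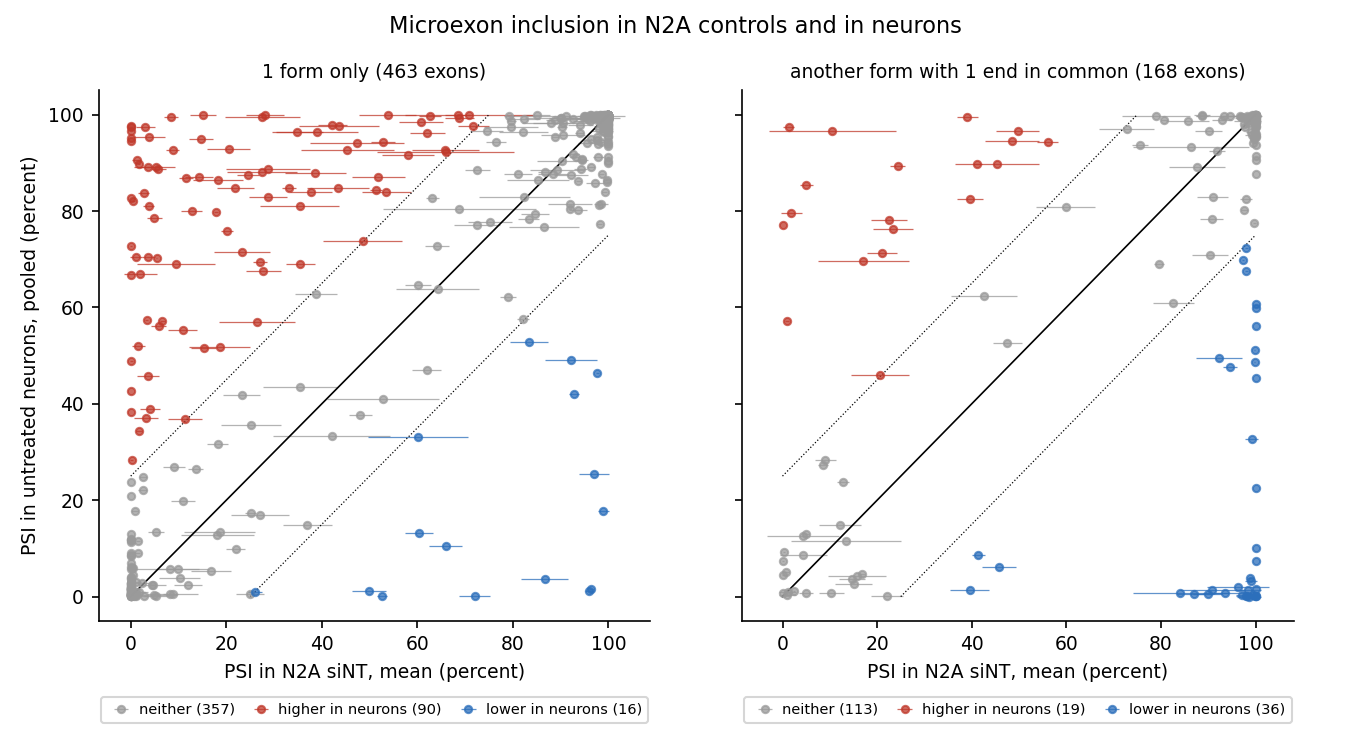
PSI of each microexon in untreated neurons (pooled value, vertical axis, percent) against the mean of 3 siNT samples of N2A (horizontal axis, percent, bars are SD), for 463 exons with 1 form (left) and 168 with another form (right). The solid line marks equal values and the dotted lines 25 points; the 90 red exons at left outnumber the 16 blue, while at right 36 blue exons, most of them near 100% in N2A, outnumber 19 red.

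The exons with the largest differences were nearly absent from N2A transcripts and nearly always included in neurons. Cyth2 encodes cytohesin 2, an exchange factor for ARF GTPases, and its 3 nt exon adds a single codon. Its PSI was 0.06%, 0% and 0% in the siNT samples and 97.6% in neurons. Snap91, the clathrin assembly protein AP180 of nerve terminals, had its 6 nt exon listed at 0% in every siNT sample and at 97.3% in neurons. Its 1544 siNT reads allow a PSI of up to 0.194% on 3 counts, a limit that covers counting error only.

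Further exons with no inclusion reads in N2A lay in genes of the membrane and of the cytoskeleton. The 5 nt exon of Sept7, a septin of the filament-forming GTPases, was at 0% in all 3 siNT samples and at 96.5% in neurons. The 18 nt exon of Adam22, a membrane receptor for the secreted protein LGI1, was at 0% in all 3 and at 95.1% in neurons. With only 147 and 93 siNT reads, these exons could have had a PSI of up to 2.04% and 3.23% in N2A. In all, 9 of the 109 higher exons were at 0% in every siNT sample.

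Vesicle traffic genes gave 3 more of the largest differences. In Exoc1, a subunit of the exocyst that tethers secretory vesicles, the 21 nt exon stood at 5.26%, 1.20% and 2.75% in siNT and 97.5% in neurons. In Ap1b1, a subunit of the AP-1 clathrin adaptor, the 21 nt exon stood at 1.95%, 1.54% and 0.20% in siNT and 90.6% in neurons. The 21 nt exon of Synj1, the lipid phosphatase synaptojanin 1 that strips clathrin from vesicles, stood at 2.17%, 1.73% and 0% in siNT and 97.4% in neurons, and has another form.

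The rest of the largest 12 were spread over several functions. The 21 nt exon of Dctn1, the large dynactin subunit that links dynein to microtubules, had 1.87%, 1.95% and 1.55% in siNT and 89.8% in neurons. Gramd1a encodes a sterol transfer protein of the endoplasmic reticulum, and its 12 nt exon had 8.72%, 9.66% and 6.94% in siNT and 99.5% in neurons. Erc2, a scaffold of the presynaptic active zone, was the least even: its 12 nt exon had 5.98%, 0% and 25.6% in siNT on as few as 28 reads in a sample, against 96.6% in neurons, and has another form. The 21 nt exon of Tenm4 and the 12 nt exon of Cacna1b complete the 12 and are described with their genes.

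**Figure D2:**
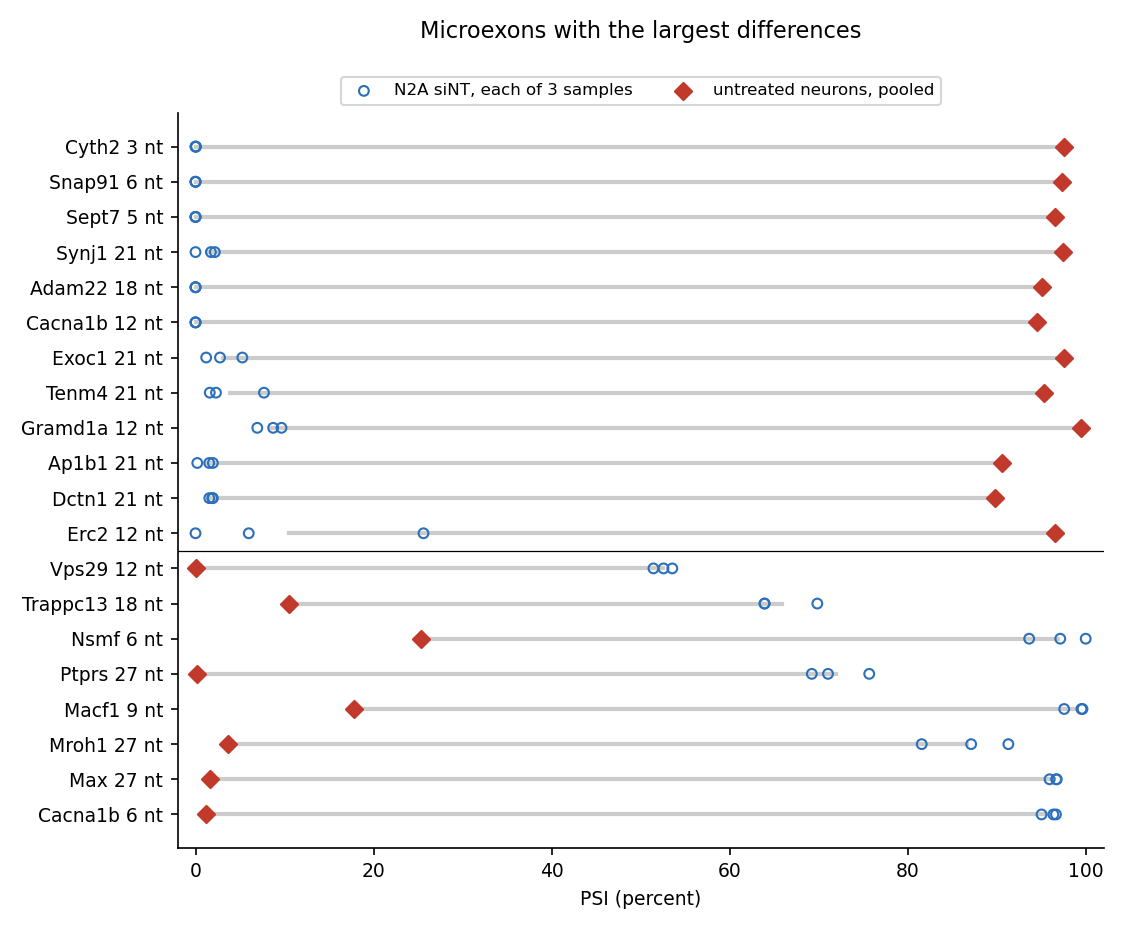
PSI (percent, horizontal axis) of the 12 microexons most above N2A in neurons (over the line) and the 8 most below it among exons with 1 form (under the line), as 3 siNT samples of N2A (circles) and the pooled untreated neurons (diamonds). Grey bars join the siNT mean to the neuron value; the exons were chosen for this difference, and the Erc2 circles are the most spread of those over the line.

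The 8 largest differences in the other direction were all in exons with another form. They lay in Madd, Fuca1, Glg1, Gapvd1, Hnrnpk, Gm37494, Med21 and Med16, with siNT means of 98.0% to 100% and neuron values of 0.0218% to 1.63%. Of the 15 exons at 95% or more in N2A and 5% or less in neurons, 13 had another form, 9 of them with alternative ends in the N2A table. Of the 8 exons, only that of Hnrnpk was coding, that of Med16 was untranslated and the others lay in noncoding transcripts. The 16 nt exon of Hnrnpk, an RNA-binding protein, had 95.7%, 100% and 100% in siNT, on as few as 21 reads in a sample, and 0.0218% in neurons.

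Among exons with 1 form, 8 coding exons were the furthest below N2A in neurons, and were picked out after their values were seen. The 27 nt exon of Max, the partner of MYC in DNA binding, had 96.7%, 96.8% and 95.9% in siNT and 1.68% in neurons. The 9 nt exon of Macf1, which crosslinks actin and microtubules, had 99.5%, 97.6% and 99.6% in siNT and 17.8% in neurons. The 27 nt exon of Ptprs, a receptor tyrosine phosphatase of axons, had 75.7%, 69.2% and 71.1% in siNT and 0.164% in neurons.

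The 6 nt exon of Nsmf, a messenger from synapse to nucleus, had 97.1%, 100% and 93.7% in siNT and 25.3% in neurons. Subunits of the trafficking complexes TRAPP and retromer followed. The 18 nt exon of Trappc13 had 63.9%, 69.9% and 63.9% in siNT and 10.5% in neurons. That of Vps29, of 12 nt, had 51.4%, 52.6% and 53.6% in siNT and 0.0782% in neurons. Mroh1 and Cacna1b make up the 8, with 86.7% ± 4.88 (SD, n = 3) against 3.63% for the 27 nt exon of Mroh1.

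The other 8 lower exons with 1 form had smaller differences. They lay in Tead1, Sgce, Adgrl1, Dst, Pcnt, Nbea, Nrcam and Col4a1. From raw junction reads, Adgrl1, Dst, Nrcam and Col4a1 were no longer lower. The 9 nt exon of Nbea, neurobeachin, even changed sides, with 83.4% in siNT from the deposited PSI, 23.0% from raw reads and 52.9% in neurons. The 12 nt exon of Tead1, a transcription factor of the Hippo pathway, had 97.7% ± 0.306 (SD, n = 3) in siNT and 46.4% in neurons.

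Cacna1b held a pair of microexons with opposite levels in the cell types. The gene encodes the pore subunit of the N-type calcium channel of nerve terminals, and both exons have 1 form. The 6 nt exon had 96.7%, 96.4% and 95.04% in siNT and 1.15% in neurons. The 12 nt exon was at 0% in every siNT sample, up to 1.32% on 3 of 228 reads, and at 94.6% in neurons. The 6 nt form is known from peripheral neurons such as sympathetic ganglia, and the 12 nt form from the brain. The siNT values of each exon lay within 2 points of each other on the opposite side of the scale from the neuron value.

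The higher exons mostly kept the reading frame. Lengths divisible by 3 made up 98 of the 109 higher exons (89.9%), 31 of the 52 lower (59.6%), 298 of the 470 others (63.4%) and 427 of all 631 (67.7%). Over exons with 1 form, 15 of the 16 lower exons also had whole codons. Read the other way, 98 of 427 whole-codon exons were higher (23.0%) against 11 of 204 others (5.39%). The median PSI in N2A was 72.5% for whole-codon exons and 99.3% for the others, which left the others less room to rise. Coding exons made up 99 of the 109 higher, 35 of the 52 lower (67.3%) and 423 of the 470 others.

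The higher exons were close in length to the rest and lay between longer annotated introns. The median length was 21 nt for both differing classes and 22 nt for the rest. Of exons of 3 to 9 nt, 10 of 64 were higher (15.6%), of 10 to 18 nt 41 of 178 (23.0%) and of 19 to 27 nt 58 of 389 (14.9%). The median annotated intron before the exon was 1852 nt for higher, 952 nt for lower and 1386 nt for the other exons. After the exon the medians were 1438, 848 and 1222.5 nt. The exon was part of a median 33.3% of the annotated transcripts that span it in both differing classes, against 60% in the rest.

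The authors' deposited list of neural microexons held 170 of the 631 exons. Of these 170, 73 were higher in neurons (42.9%), 8 lower and 89 neither, with a median difference of 17.96 points. Of the 461 exons outside the list, 36 were higher (7.81%) and 44 lower, with a median difference of -0.135 points. The median PSI in N2A was 53.2% in the list and 98.2% outside it, so the room to rise differed. From raw junction reads 94 of the 170 were higher and 4 lower, and of the 461 outside the list 49 were higher and 39 lower, so that the order of higher and lower turned there. Its deposited values come from the same N2A samples, and the sources used here do not say how it was drawn up, so it is not independent evidence of a direction.

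The side of an ACTAAY motif, where Y is C or T and which is the binding motif of Qk, was listed with each exon. With the motif listed upstream, 9 of 22 exons were higher, with it downstream 5 of 12, and with none listed 59 of 136. The median differences were 16.0, 23.1 and 17.9 points in that order. The sources used here do not give the window of that search.

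**Figure D3:**
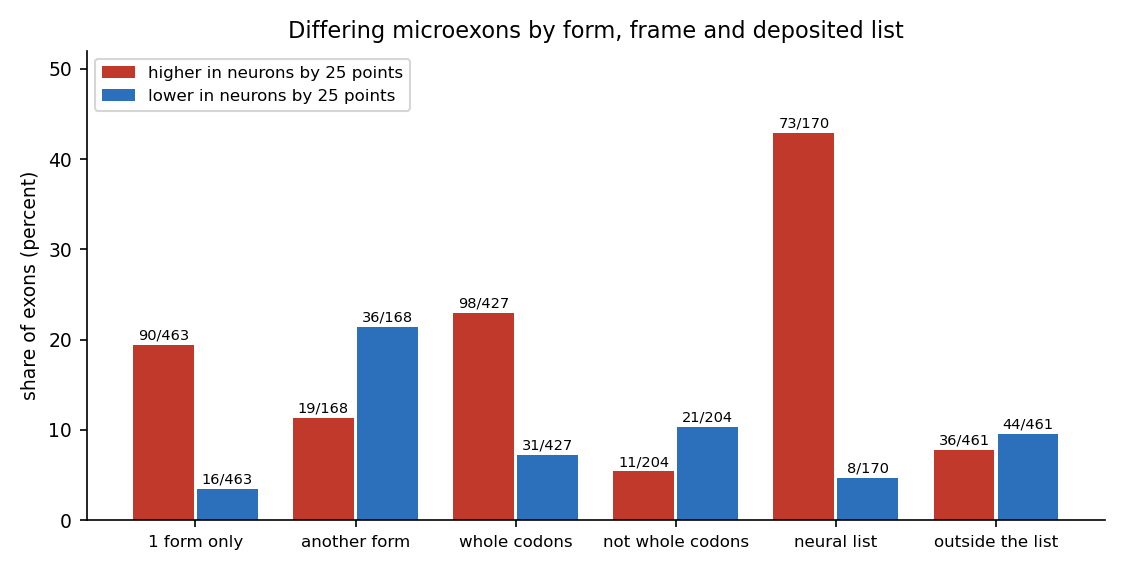
Share of microexons (vertical axis, percent) that were higher (red) or lower (blue) in neurons by at least 25 points, for exons grouped by form, by reading frame and by the authors' neural list, with counts above the bars. Exons not in whole codons and exons outside the list had a median N2A PSI of 99.3% and 98.2%, leaving little room to rise. The red bar is the taller one for 1 form, whole codons and the neural list (73 of 170), and the blue bar for another form (36 of 168), lengths not in whole codons and exons outside the list; outside the list that order turned with raw junction reads (49 higher, 39 lower).

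Among the genes of the synapse, 7 of 14 measured microexons were higher in neurons and 0 lower, with a median difference of 25.2 points beside 0.0497 for all 631. Of the 38 genes on the list, 11 had a measured exon. Liprins-alpha organise release sites: the 27 nt exon of Ppfia3 had 36.5%, 24.5% and 21.8% in siNT and 99.4% in neurons. The same exon of its relative Ppfia1 had 21.5%, 18.9% and 19.9% in siNT and 75.8% in neurons. These exons share 18 of 27 bases (66.7%). Erc2 had a second exon, of 24 nt, with 4.96%, 18.9% and 4.60% in siNT and 69.1% in neurons, and the 12 nt exon of Erc1, its relative, had 58.1% ± 5.47 (SD, n = 3) and 91.6%.

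Shank2, a scaffold of the postsynaptic density, had 2 higher microexons on few N2A reads. The 9 nt exon had 35.1%, 54.5% and 46.5% in siNT and 92.6% in neurons. The 21 nt exon had 0%, 0% and 6.02% in siNT, on 15 reads in the shallowest sample, and 66.9% in neurons.

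Genes of endocytosis and vesicle traffic had 9 higher exons of 35, 1 lower and 25 neither, with a median difference of 3.38 points. From raw junction reads 17 of the 35 were higher. Beside Snap91, Synj1, Exoc1 and Ap1b1, the higher exons lay in Sh3glb2, Atp2c1, Trappc9, Sgip1 and Agap1. Sh3glb2 encodes endophilin B2, a membrane-bending protein. Its 12 nt exon had 14.4% ± 2.92 (SD, n = 3) in siNT and 87.0% in neurons, while its 15 nt exon, which has another form, had 98.1% ± 0.283 and 72.4% and was not lower from raw junction reads. Traffic genes long known for neuronal microexons also held exons with no such excess in neurons: the 24 nt exon of Picalm, a clathrin adaptor, had 21.97% ± 2.04 in siNT and 9.82% in neurons.

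Genes of the cytoskeleton and its motors had 16 higher exons of 51, 3 lower and 32 neither, with a median difference of 4.67 points. Clasp2, which stabilises microtubule plus ends, gave 5 of the 16 from 7 measured microexons. Its consecutive 27 nt exons, shown above as neighbours, were at 0.517% ± 0.275 and at 0% in all siNT samples and at 82.0% and 82.8% in neurons. Its 18 nt exon had 14.2%, 13.0% and 18.1% in siNT and 99.9% in neurons, and the 24 nt exon that precedes it had 31.7%, 23.8% and 28.7% and then 99.9%. A further 24 nt exon had 86.3%, 62.9% and 63.3% in siNT and 99.9% in neurons. The 3 nt and 17 nt exons were under 15% in every siNT sample and in neurons.

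In the relative Clasp1 the 27 nt exon had 42.2% ± 3.02 (SD, n = 3) in siNT and 97.8% in neurons. Ank3, which anchors channels to the spectrin skeleton at the axon initial segment, had its 27 nt exon at 10.3%, 8.25% and 7.69% in siNT and 92.7% in neurons. A 15 nt exon of Dctn1 had 34.9% ± 5.28 and 96.4%, beside the 21 nt exon given above. Sptan1, alpha spectrin, had a 15 nt exon at 60.8% ± 4.61 and 98.5%, while its 18 nt and 24 nt exons were above 98% in both cell types. The motor gene Myo6 had 2 exons of 27 nt, both at 0% in all siNT samples. One was at 42.6% in neurons and, with 10, 16 and 31 reads, could have had a PSI of up to 5.26% in N2A, and the other was at 3.67% in neurons. The lower exons lay in Macf1, Dst and Myo18a.

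Adhesion and axon guidance receptors had 11 higher exons of 26, 3 lower and 12 neither, with a median difference of 1.88 points. Teneurins, large transsynaptic adhesion proteins, gave 4 of the 11. The 21 nt exon of Tenm4 had 2.30%, 7.69% and 1.60% in siNT and 95.3% in neurons, and that of Tenm3 had 17.9%, 17.5% and 18.3% and 79.9%. The 27 nt exon of Tenm4 had 5.73%, 6.02% and 3.14% in siNT and 78.5% in neurons, and that of Tenm3 had 12.8%, 10.5% and 15% and 79.9%. The 21 nt exons share 20 of 21 bases (95.2%) and the 27 nt exons 24 of 27 (88.9%).

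A 12 nt exon was measured in L1cam and Nrcam, cell adhesion molecules of the L1 family. In L1cam it had 47.8%, 59.8% and 53.8% in siNT and 99.9% in neurons. In Nrcam it was at 0% in all siNT samples, up to 2.04% on 147 reads, and at 66.8% in neurons. These exons share 8 of 12 bases. The 18 nt exon of Nrcam was higher in N2A, with 72.3%, 53.2% and 55.0% against 33.0%, but raw junction reads gave a difference of 0.00781 points. The 18 nt exon of Ptprf, a receptor phosphatase like Ptprs, had 0%, 0.21% and 0% in siNT and 72.8% in neurons.

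Latrophilins, adhesion receptors coupled to G proteins, differed among themselves. The 27 nt exon of Adgrl2 had 0.46%, 0% and 0% in siNT and 49.0% in neurons. Its 12 nt exon was the higher exon nearest to the 25 point limit. The 15 nt exon of Adgrl1 had 48.6%, 53.9% and 47.1% in siNT and 1.23% in neurons, and lost its class when raw junction reads were used.

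The smaller lists held few measured exons. Ion channels and transporters had 2 higher and 1 lower exon of 7, with a median difference of 1.13 points: beside Cacna1b, the 15 nt exon of Slc12a5, the chloride exporter of mature neurons, had 54.5%, 36.2% and 51.5% in siNT and 94.1% in neurons. Chromatin and transcription regulators had 3 higher of 10 and 0 lower, with a median of 4.82 points. Mef2a, an activity-regulated transcription factor, had its 24 nt exon at 25.4%, 26.4% and 22.04% in siNT and 87.4% in neurons, and the others were a 21 nt exon of Trrap, a scaffold of histone acetyltransferases, with 23.4% ± 5.85 and 71.4%, and an 18 nt exon of the Mediator gene Med23 with 35.4% ± 8.26 and 81.1% (SD, n = 3).

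RNA-binding and translation genes had 3 higher and 1 lower of 12, with a median of 1.42 points. The 24 nt exon of Cpeb4, a regulator of poly(A) tail length, had 23.7%, 13.3% and 17.9% in siNT and 86.4% in neurons. The 21 nt exon of the translation factor gene Eif4g3 had 2.06%, 2.12% and 4.07% in siNT and 83.7% in neurons. Kinase, phosphatase and small GTPase regulators had 8 higher and 1 lower of 30, with a median of 1.15 points. The 18 nt exon of Src, which marks the neuronal form of this tyrosine kinase, had 17.8%, 22.3% and 25.6% in siNT and 84.7% in neurons. The 24 nt exon of Rapgef6, an exchange factor for RAP GTPases, had 6.90%, 1.63% and 2.32% in siNT and 89.2% in neurons.

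Genes in none of the 8 lists held 446 of the 631 exons, of which 50 were higher (11.2%) and 42 lower (9.42%), with a median difference of -0.125 points. The median PSI of these 446 in N2A was 97.6%, from which a rise of 25 points is not possible. Over the 8 lists that median ran from 18.4% (synapse) to 96.0% (channels), so the shares of higher exons are not at equal room to rise. The lists were chosen with earlier results of these data known. A larger share in them than in the other genes is therefore no evidence of a link to function. From raw junction reads the higher exons of the lists numbered 7 for synapse, 22 for cytoskeleton, 12 for adhesion, 3 for channels, 5 for chromatin, 3 for RNA and 11 for signalling.

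**Figure D4:**
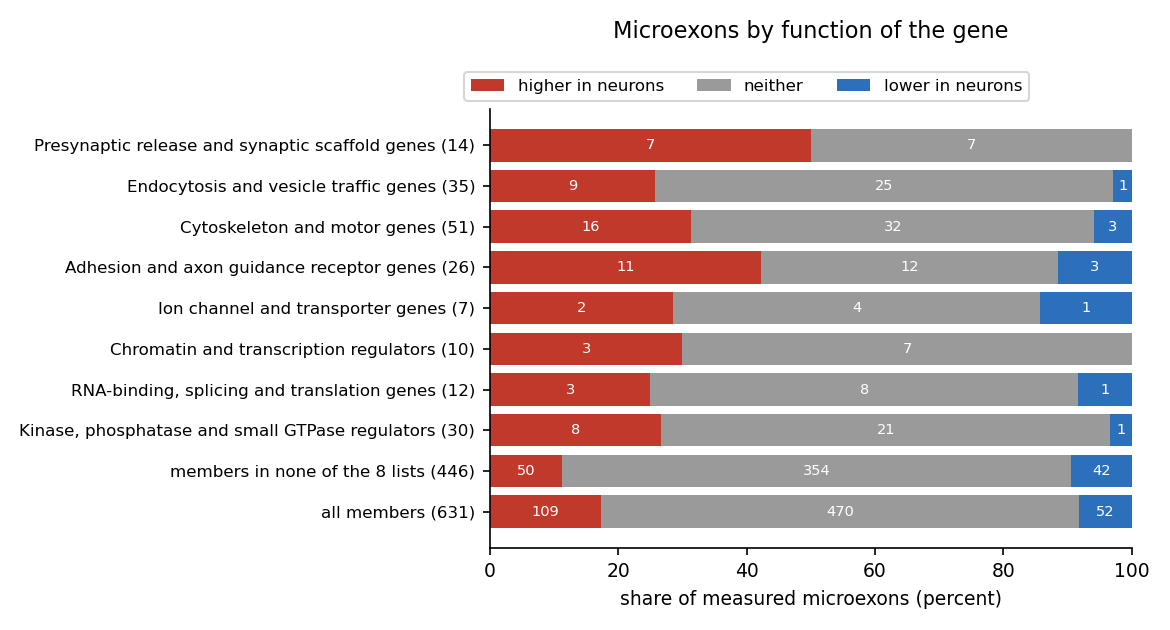
Share of measured microexons (horizontal axis, percent) higher in neurons (red), lower (blue) or neither (grey) for 8 lists of genes by function, for genes in none of them and for all 631 exons, with the number of exons in each segment and, after each name, the number measured. The red share runs from 25% to 50% over the 8 lists, beside 11.2% in the genes of no list and 17.3% of all exons. Median PSI in N2A was 97.6% in genes of no list and 18.4% (synapse) to 96.0% (channels) in the lists. The room to rise therefore differed between the bars. The lists were also chosen with earlier results of these data known, so the contrast is not independent of those results.

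Of 40 genes long known for neuronal microexons, 27 had at least 1 measured exon. Their 45 exons comprised 16 that were higher in neurons (35.6%, beside 17.3% of all 631), 2 that were lower (4.44%, beside 8.24%), the 27 nt exon of Madd and the 18 nt exon of Nrcam, and 27 that were neither. The median difference was 7.08 points, and the median PSI in N2A was 27.6%, beside 91.9% for all 631. These genes too were chosen with earlier results of these data known. Most of the higher ones are given above with their genes. Of the others, the 27 nt exon of Daam1, a formin that nucleates actin, had 73.8%, 68.0% and 73.3% in siNT and 97.7% in neurons, and the 12 nt exon of Agap1, a GTPase-activating protein for ARF, had 6.17%, 1.80% and 1.62% and 37.0%. Several of the 27 were already included in N2A: the 21 nt exon of the transcription factor gene Mef2d had 88.4% ± 3.15 (SD, n = 3) in siNT and 87.6% in neurons, and the 15 nt exon of Abi1, a regulator of actin branching, had 90.3% ± 1.04 and 97.4%. The exon of Abi1 had 68.1% in siNT from raw junction reads and then counted as higher in neurons.

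Others of the 27 were skipped in both cell types. The 12 nt exon of Kdm1a, the histone demethylase LSD1, had 1.40%, 1.00% and 0.70% in siNT and 0.115% in neurons. The 8 nt exon of the endocytic scaffold gene Itsn1 was at 0% in all siNT samples and at 0.650% in neurons. It has another form and is annotated in a noncoding transcript, and was taken because its gene was on the list. Enah, a regulator of actin filaments, gave 1 of the 16 higher exons: of 2 exons of 12 nt it had 1 at 0% in all siNT samples and 0.341% in neurons, while the other had 0.53%, 0% and 0% in siNT and 28.4% in neurons.

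Some microexons were at an intermediate level in both cell types. With both values from 25% to 75%, 18 exons were found, and the 6 with the least difference lay in Phactr2, Ank3, Ncor1, Zmynd8, Synj1 and Trim9. The 12 nt exon of Phactr2 had 56.2%, 73.6% and 62.8% in siNT and 63.8% in neurons, inside the range of the N2A samples. In Ank3 a 12 nt exon had 62.3%, 60.9% and 57.1% in siNT and 64.7% in neurons. From raw junction reads the N2A values of these exons were 21.7% and 14.4%, and both then counted as higher in neurons, as did those of Zmynd8 and Synj1. In the remaining genes the siNT mean and the neuron value were 47.5% ± 3.01 and 52.5% for the 27 nt exon of the corepressor gene Ncor1, which has another form. They were 35.4% ± 7.77 and 43.5% for the 12 nt exon of Zmynd8, a chromatin reader, and 64.1% ± 2.45 and 72.8% for a 24 nt exon of Synj1. For the 24 nt exon of Trim9, a ubiquitin ligase of axons, they were 42.1% ± 12.2 and 33.4% (SD, n = 3 in each).

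Several genes held more than 1 higher microexon. Of 75 genes with 2 or more of the exons (166 in all), 9 had at least 2 that were higher: Adgrl2, Agrn, Clasp2, Dctn1, Erc2, Rapgef6, Shank2, Tenm3 and Tenm4. None had 2 that were lower, and Cacna1b, Nrcam and Sh3glb2 had exons in both directions. From raw junction reads the lower exons of Nrcam and Sh3glb2 were no longer lower. Among all 631 exons, 109 were higher (17.3%) and only 52 lower (8.24%). The lack of a gene with 2 lower exons is therefore not a separate result. Agrn, agrin, the organiser of the neuromuscular synapse, had its 24 nt exon at 1.04% ± 0.433 (SD, n = 3) in siNT and 57.3% in neurons and its 12 nt exon at 51.9% ± 5.62 and 87.0%. Exons of 1 gene share their transcripts and are not separate observations.

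The values after Qk knockdown and after cycloheximide stand beside the controls here without a comparison, since they share those control samples. The 27 nt exon of Ppfia1 had 20.1% ± 1.28 in siNT, 73.1% ± 3.08 in siQk (SD, n = 3 each), 75.8% in untreated and 74.2% in cycloheximide neurons. In Ppfia3 the values were 27.6% ± 7.82, 76.5% ± 5.76, 99.4% and 95.6%. Consecutive 27 nt exons of Clasp2 were at 0.517% and 0% in siNT, 0.430% and 0% in siQk, 82.0% and 82.8% in untreated neurons and 49.2% and 50.7% with cycloheximide.

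The group medians ran as follows. For the 109 higher exons they were 18.3% in siNT, 25.03% in siQk, 85.3% in untreated neurons and 70.9% with cycloheximide. For the 52 lower exons they were 97.3%, 97.6%, 4.93% and 6.45%. For the 470 others they were 97.8%, 98.2%, 97.4% and 95.8%. The siNT and untreated values defined the classes and so set their own medians apart. The siQk and cycloheximide medians of the higher and lower exons can differ from these through that selection alone, and no shift is read from them. Single exons departed from this: with cycloheximide the 21 nt exon of Shank2 was at 3.33% against 66.9% untreated, the 21 nt exon of Synj1 at 41.3% against 97.4%, and the 9 nt exon of Nbea at 99.7% against 52.9%.

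**Figure D5:**
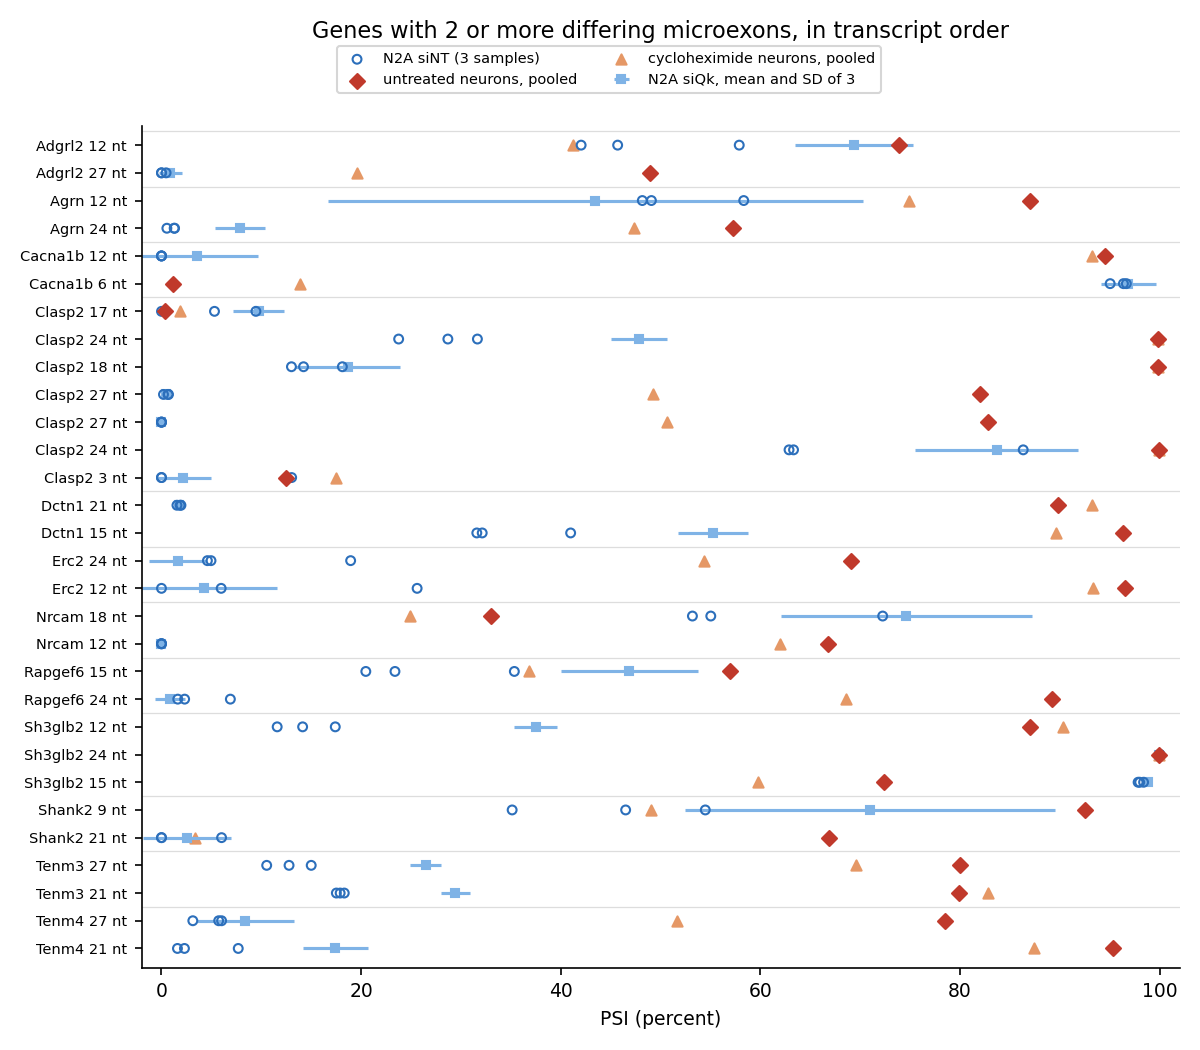
PSI (percent, horizontal axis) of every measured microexon in the 9 genes with at least 2 higher exons and the 3 genes with exons in both directions, in transcript order within each gene, for siNT samples (circles), siQk (light squares, mean with SD bars of 3), untreated neurons (diamonds) and cycloheximide neurons (triangles), the neurons pooled. Clasp2 has 5 exons with the diamond right of all circles, and the 6 nt and 12 nt exons of Cacna1b lie at opposite ends. From raw junction reads the lower exons of Nrcam and Sh3glb2 were no longer lower.

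The limits of the selection were as follows. Just inside the 25 point limit lay Col4a1 with -25.1, Adgrl2 with 25.3 and Heatr5a with 25.4 points, and just outside lay Vti1a with -24.5 and Dnm2 with -24.4. With 10 reads in the shallowest siNT sample, Ap1g1 had 93.1% in siNT (46.1% from raw junction reads) and 91.3% in neurons, and Chpt1 52.8% and 40.9%. With 9 reads, and so left out, Asap1 had 92.3% and 89.1%, and Kif13a 90.3% and 99.1%. The 334 matched exons left out for reads, 200 of them with no read in any siNT sample, had a median PSI of 89.1% in neurons, and 60.2% of them were at 80% or more, beside 61.0% of the 631. Exons of genes with no reads in N2A are therefore not described. All 631 exons were annotated in GENCODE M21: 557 were coding, 10 partly coding, 14 untranslated and 50 in transcripts without a coding region.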

How the data were processed

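Splicing was read from RNA sequencing of 6 N2A samples and 4 neuron samples. For N2A the authors deposited a percent (PSI) per exon event and sample, per the file headers as vast-tools writes it, and beside it a quality cell, another kind of value, with coverage flags, raw junction reads and corrected inclusion and exclusion reads. For neurons the authors deposited a PSI fraction per condition, replicates combined, per the file headers as Whippet writes it, and an entropy score that is not reported here. Its columns A and B were read as untreated and cycloheximide because the file lists the control first. A list of neural microexons was deposited too, with PSI as a fraction and a difference as a score. Software versions and settings are not given in the sources used here, and the build, mm10, is per the submitters' processing notes. Short exons leave few bases to align, so PSI can depend on the aligner and on the correction.

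Exons were matched by chromosome, start and end after adding 1 to the neuron start. Fractions were turned into percent. Exons listed under 2 gene IDs (5) were averaged; their values differed by at most 0.365 points. No column of another series was used. Introns, coding status and sequences came from the GENCODE M21 annotation. Values are mean ± SD of 3 siNT samples, and limits for a PSI of 0 are 3 counts over the reads of the group. The classification code was run on simulated data whose differences were either absent or well past the limit. Those data held no difference of tool, read correction or exon form, so the run checked the code only. Python 3.11.15, pandas 2.3.3, numpy 2.4.6, scipy 1.17.1 and matplotlib 3.10.9 were used. Searches of intron motifs were planned and not run, since no genome sequence was used here.

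The microexons and gene lists were chosen with earlier results of these data known. Named were the 12 largest differences with more inclusion in neurons and the 8 largest with less, the 6 exons of 25% to 75% in both with the least difference, exons of 40 classic microexon genes, the 3 largest differences of each of 8 gene lists, and exons at the read minimum. Exons with 1 form and further list or multi-exon examples were added after their values were seen. Alternatives changed the read minimum, the coverage flag, the level limits, the annotation, the source of the reads and the replicates. The second, filtered neuron table was not used.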

Additional observations from a re-analysis of the deposited data

How the results depend on the processing

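No paired analysis was possible because the neurons have 1 combined value per exon and no test was made. Leaving out each siNT sample in turn gave 108 to 109 higher exons, 51 to 55 lower, 26 to 28 low in N2A and high in neurons, 24 the reverse and a median difference of 0.024 to 0.05 points. Whole codons then made up 88.1% to 91.7% of the higher and 60% to 60.8% of the lower exons, and the neural list 66.97% to 68.5% of the higher ones.

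With the coverage flag at SOK or OK, 29 exons were lower and 10 were high in N2A and low in neurons, the median difference was 0.231 points, and 82.8% of the lower exons had whole codons. With levels set at 10% and 90%, 11 exons were low in N2A and high in neurons, and at 30% and 70%, 49. A minimum of 20 reads, no minimum, or reads summed over the siNT samples kept the counts of higher and lower exons within 1.5 times. Leaving out neuron values of exactly 0 or 100, or exons without exact annotated ends, removed none of the 631.

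The remaining alternatives were chosen after seeing the data. From raw junction reads, 42 exons were low in N2A and high in neurons, the median difference was 0.773 points and 108 of the 109 higher exons were among the 143 then higher. Of 90 named exons, 54 then moved by more than the siNT SD and the 18 nt exon of Nrcam turned from lower to a difference of 0.00781 points. Without exons with alternative ends, 10 were high in N2A and low in neurons. Over exons with 1 form, 16 were lower, 4 were high in N2A and low in neurons, the median difference was 0.341 points and 93.75% of the lower exons had whole codons. Over exons that no other annotated exon overlaps, 14 were lower, 3 were high in N2A and low in neurons, the median difference was 0.27 points, and 94.9% of the higher and 92.9% of the lower exons had whole codons. The cause of these shifts was not tested. Depth limits the exons with few reads in N2A, and the depth of the neuron values is unknown.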
